A study of Mus musculus with 6 samples.

Results

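The 10 genes described here encode the antimicrobial products of Paneth cells and of the neighbouring crypt epithelium: Lyz1, Defa24, Defa26, Mmp7, Ang4, Itln1, Pla2g2a, Reg3a, Reg3b and Reg3g. They were chosen by name, and all 10 were found among the 21255 Ensembl identifiers of the deposited table of normalized counts. The data come from mouse jejunal crypts grown as 3-dimensional organoids in Matrigel, whose polyadenylated RNA was sequenced from 3 control and 3 C/EBPα KO libraries. Control organoids carried C/EBPα Flox/Flox without a Cre transgene (the labels call them wildtype), C/EBPα KO organoids carried in addition VillinCreERT2, which is active in the intestinal epithelium, and both received 4-hydroxytamoxifen (4-OHT), at 400 nM for 2 days by the labels, while the study's methods give a higher dose. By name, value columns could be matched to control libraries (S1 to S3) alone. The C/EBPα KO libraries were therefore not analysed here, and what follows describes the level and the spread of these genes in control organoids, without a test between groups. The labels do not say whether S1, S2 and S3 came from separate mice or cultures, so their spread may be technical in part, although sex-linked transcripts, given below, set S1 apart from the others.

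Paneth cells sit at the base of small intestinal crypts between the stem cells and release granules filled with antimicrobial proteins into the crypt lumen. Lysozyme (Lyz1) cuts bacterial cell walls, α-defensins (the Defa genes, called cryptdins in mice) permeabilise bacterial membranes, and matrilysin (Mmp7) cleaves the inactive pro-cryptdins into their active form. Angiogenin 4 (Ang4) is a secreted ribonuclease with bactericidal activity, intelectin 1 (Itln1) is a lectin that binds microbial sugars and is made by Paneth and goblet cells, and the secretory phospholipase A2 of Pla2g2a attacks bacterial membranes. Reg3a, Reg3b and Reg3g encode secreted C-type lectins that are made by enterocytes as well as Paneth cells and respond to microbes and interleukin-22, a signal that comes from immune cells in the tissue.

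The libraries held 36.8 M (S1), 32.9 M (S2) and 30.4 M (S3) reads on genes. A mean of 10 or more normalized counts was reached by 13803 genes, which were compared, among them all 10 members. The libraries differed in sex-linked transcripts, with Xist at 18.9, 15423 and 14769 normalized counts in S1, S2 and S3, and 4 Y-linked genes (Uty, Kdm5d, Ddx3y and Eif2s3y) at a sum of 4804, 256 and 35.7. S1 thus did not come from the same single animal as S2 or S3. The part of this difference in the values below was not tested, nor was that of any other difference between the cultures. Cebpa, the gene targeted in the experiment, had 6446, 5829 and 6016 normalized counts in S1, S2 and S3.

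The sequence before the transcription start was taken for the members to describe the letters it holds. Whether it bears on the order of the libraries was not tested. RefSeq (GRCm38.p6) held such a sequence for 7 of the members, Lyz1, Mmp7, Ang4, Itln1, Reg3a, Reg3b and Reg3g. It was joined to the counts by gene symbol only, since the reads had been mapped to mm9. Lyz1 and Mmp7 are shown as examples of the members with S3 highest, and the 3 Reg3 genes as neighbours in 1 family whose orders differed. Each run is written 5′ to 3′ on the strand of the gene, and capitals mark matches, on either strand, to the letters of the TATA box or of the TCF/LEF, STAT or C/EBP sites that the next paragraph spells out.
Lyz1 (chr10:117292869-117293118, minus strand, 250 bases up to the start): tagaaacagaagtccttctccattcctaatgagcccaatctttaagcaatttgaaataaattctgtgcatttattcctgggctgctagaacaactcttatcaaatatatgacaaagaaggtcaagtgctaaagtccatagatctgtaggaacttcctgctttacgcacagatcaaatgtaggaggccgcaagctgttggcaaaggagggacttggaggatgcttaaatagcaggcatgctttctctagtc
Mmp7 (chr9:7691840-7692089, plus strand, 250 bases up to the start): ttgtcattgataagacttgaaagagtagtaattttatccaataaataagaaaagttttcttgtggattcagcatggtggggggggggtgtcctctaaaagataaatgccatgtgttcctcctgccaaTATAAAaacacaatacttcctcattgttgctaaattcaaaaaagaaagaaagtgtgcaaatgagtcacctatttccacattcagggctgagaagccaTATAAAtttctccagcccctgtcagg
Reg3a (chr6:78380459-78380708, plus strand, 250 bases up to the start): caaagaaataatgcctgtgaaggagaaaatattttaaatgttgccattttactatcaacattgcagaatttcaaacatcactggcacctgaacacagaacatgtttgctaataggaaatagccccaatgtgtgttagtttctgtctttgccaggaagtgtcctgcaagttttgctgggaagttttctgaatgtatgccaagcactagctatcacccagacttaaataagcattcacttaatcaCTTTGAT
Reg3b (chr6:78370707-78370860, plus strand, from 178 to 25 bases before the start, without bases that are exonic in another transcript of the gene): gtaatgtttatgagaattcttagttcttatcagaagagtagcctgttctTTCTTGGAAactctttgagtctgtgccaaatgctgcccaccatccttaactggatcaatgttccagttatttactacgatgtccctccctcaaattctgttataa
Reg3g (chr6:78468875-78469124, minus strand, 250 bases up to the start): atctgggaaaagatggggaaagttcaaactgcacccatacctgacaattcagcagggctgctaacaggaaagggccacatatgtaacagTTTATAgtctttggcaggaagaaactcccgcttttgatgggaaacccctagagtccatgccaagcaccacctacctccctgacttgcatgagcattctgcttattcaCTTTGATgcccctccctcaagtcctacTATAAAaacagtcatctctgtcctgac

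In the 250 bases before the start, TATAAA, the letters of a TATA box, was found in 3 of 7 members, Mmp7, Reg3b and Reg3g, against 12.4% of the 32851 promoters in the same reference. Mmp7 had it 26 bases before the start, Reg3g 27 and Reg3b 29, where the match of Reg3b runs past the stretch shown. CTTTGAT, a form of the site bound by the TCF/LEF factors of the Wnt pathway, was found in Reg3a (7 bases before the start) and Reg3g (54 bases before), against 3.21% of all promoters. TTCNNNGAA, a form of the STAT site, was found in Ang4 and Reg3b, against 7.02%. TTGCNNCAA, a form of the C/EBP site, was found in 0 of 7, against 1.74% of all promoters. CANNTG, the E-box, which is not marked by capitals, was found in 7 of 7, against 66.2%. Lyz1 had matches to the E-box alone, and so shared no marked match with Mmp7. These counts describe letters in a short window, and they and the positions depend on where the reference places each start. CTTTGAT follows similar bases in Reg3a and Reg3g, although its distance to the start differs. Bases after the start were not searched. The stretches of Reg3a and Reg3g were 68.2% identical over 201 aligned bases, those of Reg3b and Reg3g 62.99% over 154 and those of Reg3a and Reg3b 62.1% over 124.

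Together the members took 0.379%, 0.404% and 0.443% of all normalized counts in S1, S2 and S3. The normalized counts were divided by the full transcript length to compare genes, without allowance for fragment size. This weighs most on short transcripts such as those of Defa24 (0.419 kb) and Defa26 (0.372 kb). Its effect on the order below was not tested. Per kb of transcript, Defa24 had the highest level of the members at 103159 ± 12040 normalized counts per kb (SD, n = 3 control libraries). Lyz1 followed at 36538 ± 4760, Itln1 at 24117 ± 2696 and Reg3a at 15628 ± 1009. A middle group held Reg3g at 5884 ± 1399 normalized counts per kb, Ang4 at 4924 ± 991, Mmp7 at 2807 ± 417 and Reg3b at 2231 ± 122. Defa26 had 1123 ± 134 normalized counts per kb and Pla2g2a 217 ± 39.7, the lowest of the 10. Of the 9 neighbouring pairs in this order, only Reg3g and Ang4 had library ranges that overlapped. The pair of defensins thus stood near opposite ends of the order, and so did Reg3a and Reg3b within the Reg3 genes.

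**Figure D1:**
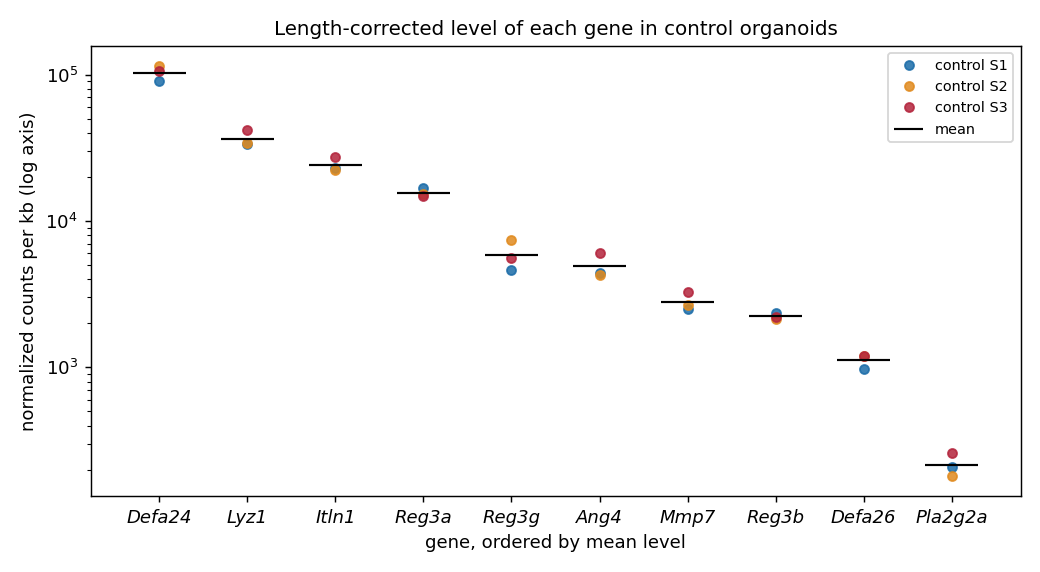
Normalized counts per kb of transcript (log axis) of the 10 genes in control libraries S1, S2 and S3 (points), with the mean of the 3 libraries (line), ordered by mean. The levels run from 103159 for Defa24 to 217 for Pla2g2a, and the points of neighbours overlap for Reg3g and Ang4 only.

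Lyz1 had 42631, 42722 and 53089 normalized counts in S1, S2 and S3. S1 and S2 were level, and S3 stood at 1.24 times their mean. Mmp7, whose product activates the cryptdins, had 2664, 2827 and 3504 in S1, S2 and S3. S3 was again the highest, at 1.28 times the mean of the others. Ang4 had 3146, 3028 and 4299 normalized counts in S1, S2 and S3, so that S3 stood at 1.39 times the mean of S1 and S2, the largest such ratio among the members. Itln1 had 26200.4, 25319 and 31033 in S1, S2 and S3, with S3 at 1.18 times S1 and 1.23 times S2. These 4 genes had S3 highest and differed between S1 and S2 by less than either differed from S3.

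Pla2g2a had 165, 143 and 205 normalized counts in S1, S2 and S3, again with S3 the highest, at 1.33 times the mean of the others. It rests on 174, 134 and 178 reads. Its exact 95% Poisson interval was 120.0 to 170 normalized counts in S2 and 176 to 237 in S3, while that of S1, from 141 to 191, overlapped both. These intervals cover counting error only. GENCODE M21 lists Pla2g2a as a polymorphic pseudogene, since several laboratory strains, C57BL/6 among them, carry a disrupted copy. The labels do not give the strain of the organoids.

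Both defensins had another order of libraries. Defa24, the member with the most RNA per kb, had 37721, 47632 and 44317 normalized counts in S1, S2 and S3. Defa26 had 361, 447 and 447 in S1, S2 and S3. S1 was the lowest for both, S2 and S3 were level for Defa26 within counting error, and S2 stood at 1.26 times S1 for Defa24 and 1.24 times for Defa26. S3 was therefore not the highest library for every granule product.

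Of the Reg3 lectins, Reg3a and Reg3b followed neither order, while Reg3g had the order of Defa24. Reg3a had 13824, 12635 and 12220.4 normalized counts in S1, S2 and S3. Reg3b had 1852, 1666 and 1723 in S1, S2 and S3. For both S1 was the highest, with an interval that overlapped that of S3 for Reg3b, and the ratio of the highest to the lowest library was 1.13 for Reg3a and 1.11 for Reg3b, the lowest ratios among the members. Reg3g had 3585, 5708 and 4317 in S1, S2 and S3. S2 stood at 1.44 times the mean of the others, and the ratio of S2 to S1, 1.59, was the largest between any libraries for a member.

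**Figure D2:**
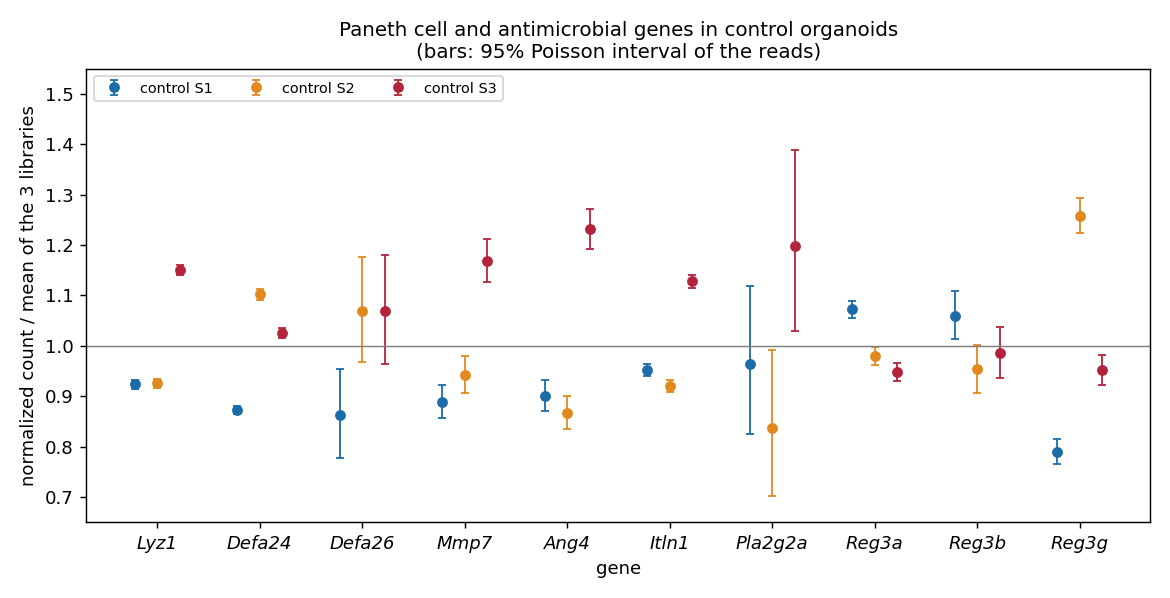
Normalized count of each gene in control libraries S1, S2 and S3, divided by the mean of the 3 libraries, with exact 95% Poisson intervals of the reads as bars. S3 is highest for Lyz1, Mmp7, Ang4, Itln1 and Pla2g2a, S2 for Defa24 and Reg3g, S2 and S3 are level for Defa26, and S1 is highest for Reg3a and Reg3b.

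S3 was thus the highest library for 5 of 10 members, against 33.1% of all genes tested, and all 5 were granule products. That S3 was high for these genes was known beforehand from these same data. The counts for S3 therefore describe the libraries and test nothing. S2 was the highest for 3, Defa26 by a margin within counting error, against 29.9% of all genes, and S1 for 2, against 37% of all genes. At least 1.2-fold above the mean of the other libraries, a limit set after the values were seen, were 5 members in S3, against 8.95% of all genes, 1 member in S2 (Reg3g), against 8.67%, and 0 in S1, against 10.2%. At least 1.5-fold above the others in S3 were 0 members, against 3.14% of all genes. The log2 deviation of a library is its log2(normalized count + 1) minus the mean of the others. Over the 10 members its median was -0.18, -0.11 and 0.21 in S1, S2 and S3, while over all genes tested it was 0.0046, -0.0034 and 0.0051 in S1, S2 and S3. Without S3 the median over the members was 0.023 in S1 and -0.023 in S2, so that the sign in S1 and most of the size in S2 rest on S3. For the 7 granule products the median in S3 was 0.31, and for the 3 Reg3 lectins it was -0.07.

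**Figure D3:**
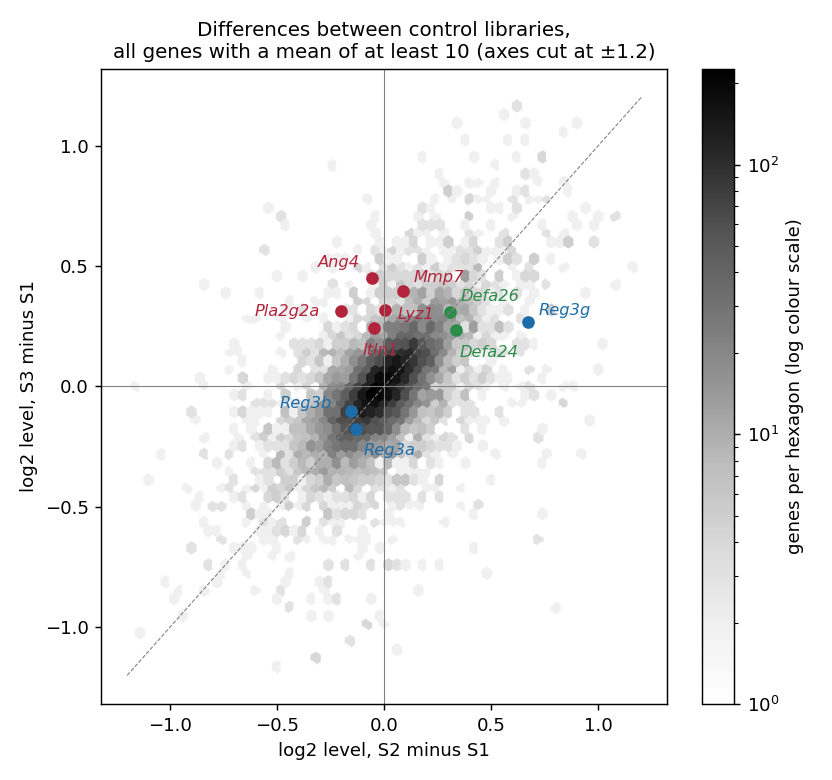
Difference in log2(normalized count + 1) between S2 and S1 (x axis) and between S3 and S1 (y axis) for genes whose mean reached 10 normalized counts, shaded by the number of genes, with 486 genes outside the axes. Lyz1, Mmp7, Ang4, Itln1 and Pla2g2a (red) lie above the zero line and left of the dashed diagonal, the defensins (green) near the diagonal, Reg3a and Reg3b (blue) below zero on both axes and Reg3g (blue) far to the right.

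The spread between libraries exceeded counting error for each member. The coefficient of variation (CV) was over 10% for 8 of 10 members, against 33.3% of all genes. It ran from 5.45% for Reg3b and 6.46% for Reg3a to 20.1% for Ang4 and 23.8% for Reg3g, while the median over all genes tested was 6.62%. Counting error alone would give Reg3g a CV of 1.53% and Ang4 1.74%. For Pla2g2a it would give 7.86% of its 18.3%, and for Defa26 5.03% of its 11.9%. The Poisson intervals of the highest and the lowest library did not overlap for 10 of 10 members, against 37.4% of all genes, a share that grows with the number of reads and so is high for abundant genes.

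Reads can be shared between members of a gene family, which could move counts from one gene to another. Of the 75-base words in its GENCODE M21 transcripts, Defa26 had 14.1% in common with another gene (Gm15292), Defa24 6.67% (Defa30), Lyz1 6.22% (Lyz2) and Mmp7 5.03% (AV064505). Ang4 shared 0.787% with Ang5, and Itln1, Pla2g2a, Reg3a, Reg3b and Reg3g shared 0%. These words count exact matches between annotated transcripts. How the quantification assigned the reads was not tested. Lyz2, the lysozyme of macrophages and other myeloid cells, had 1.89, 4.27 and 6.90 normalized counts in S1, S2 and S3.

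Of the other Defa genes, 21 had a row in the table and 18 reached a mean of 10 normalized counts. S3 was the highest library for 13 of these 18, against 33.1% of all genes, with a median log2 deviation of 0.24 in S3. The Poisson intervals of the highest and the lowest library did not overlap for 12 of the 18, against 37.4% of all genes. Those with overlap include Defa-ps1, Defa27 and Defa34, which are among the 13. Defa3 had the most normalized counts of them, with 27224, 33897 and 31023 in S1, S2 and S3, the order of Defa24. Defa17 had 7741, 8482 and 11842, with S3 highest, as for Lyz1. Defa27 deviated most in S3, at 1.19, with 10.4, 11.8 and 26.5 normalized counts. Defa28 deviated most in the other direction, at -0.22, with 31.2, 25.6 and 24.2. Defa25 had 0 reads in each library, which allows up to 3 reads per library (a limit on the upper side alone), or 2.84, 3.21 and 3.45 normalized counts in S1, S2 and S3. For Defa27 and Defa28 the Poisson intervals of the libraries overlapped, so an order of libraries could not be read from them.

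A list of other products linked to Paneth cells also held genes of wider expression, Reg4 and the surface protein gene Cd24a among them. Of these products, 10 of 11 had a row and 9 were tested. S3 was the highest library for 7 of these 9, against 33.1% of all genes, with a median log2 deviation of 0.26 in S3. For Clps, Habp2, Ang and Cd24a, which are among the 7, the Poisson interval of S3 overlapped that of the next library. Mptx2, a pentraxin of Paneth cells, deviated most, at 0.65, with 112, 140.0 and 197 normalized counts in S1, S2 and S3. Reg1, a secreted lectin of the same family as the Reg3 genes, deviated most in the other direction, at -0.79, and had the most normalized counts of this list by the mean of the libraries, with 6797, 12101 and 5255 in S1, S2 and S3, while Cd24a was above it in S3. It was highest in S2, as Reg3g was.

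Within the Reg family, 7 genes had a row and all 7 were tested, a list added after the values were seen. S2 was the highest library for Reg1 and Reg3g, S1 for Reg2, Reg3a, Reg3b and Reg3d, and S3 for Reg4. Reg4, a lectin of goblet and enteroendocrine cells, had 3399, 3668 and 4675 normalized counts in S1, S2 and S3, and is also 1 of the 7 products counted above with S3 highest. Reg3d had 69.1, 61.97 and 41.4 and Reg2 15.1, 7.48 and 10.4. The intervals of their libraries overlapped, so for Reg2 and Reg3d an order of libraries could not be read at this depth.

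**Figure D4:**
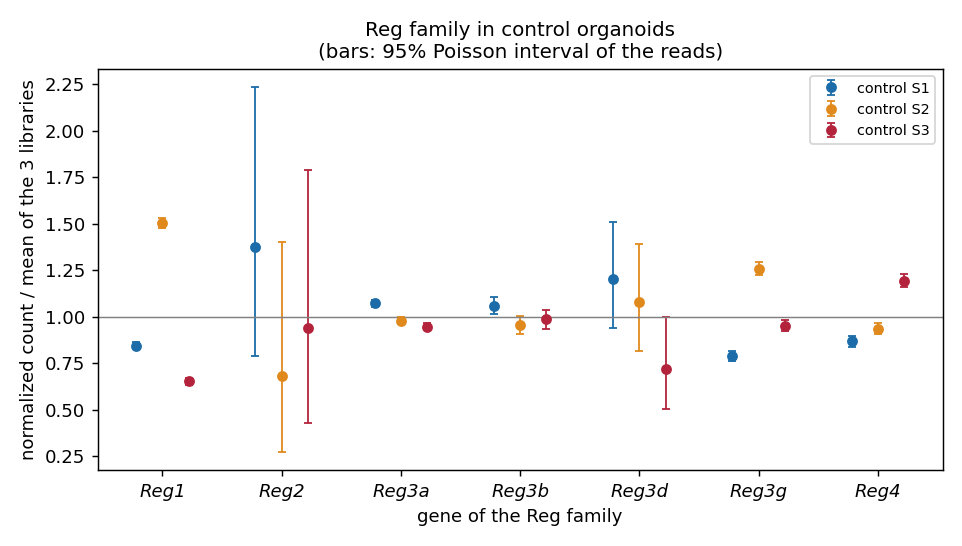
Normalized count of each Reg gene in control libraries S1, S2 and S3, divided by the mean of the 3 libraries, with exact 95% Poisson intervals of the reads as bars. Reg1 and Reg3g are highest in S2, Reg4 in S3, and the wide bars of Reg2 and Reg3d overlap.

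Genes of Paneth cell fate and of the crypt niche were mixed in their order of libraries. Of the 18 tested, S3 was the highest for 5, close to the 33.1% of all genes, and the median log2 deviation in S3 was -0.06. Xbp1, a factor of secretory cells, had 8165, 8184 and 8338 normalized counts in S1, S2 and S3, a CV of 1.15%. Atoh1, which commits cells to the secretory lineage, had 322, 361 and 322 in S1, S2 and S3, and Sox9, needed for Paneth cells to form, 953, 900 and 832. Nod2, a sensor of bacterial cell wall fragments, deviated most in S3, at 0.66, at a low level of 18.0, 22.4 and 32.2. Egf deviated most in the other direction, at -0.40, with 32.2, 38.5 and 26.5. The Poisson intervals of the libraries overlapped for both Nod2 and Egf.

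Among genes that control Reg3 expression or act in epithelial defence, 22 of 28 had a row and 20 were tested. S3 was the highest for 11 of these 20, against 33.1% of all genes, with a median log2 deviation of 0.08. For Il10rb, Stat3, Tlr2, Lcn2, Fut2 and Il18, which are among the 11, the Poisson intervals of the highest and the lowest library overlapped. For Nfkbiz and Duoxa2, also among the 11, the interval of S3 overlapped that of the next library. The receptor and transducer of interleukin-22 varied little, with Il22ra1 at 807, 763 and 793 normalized counts and Stat3 at 2704, 2817 and 2917 in S1, S2 and S3. Duox2, an oxidase that makes hydrogen peroxide at the epithelial surface, deviated most in S3, at 2.12 times the mean of the others, with 151, 267 and 444. Socs3, an inhibitor of STAT3 signalling, deviated most in the other direction, at -0.25, with 660, 614 and 534. Sprr2a2, a small proline-rich protein of the epithelium, had the most normalized counts of this list by the mean of the libraries, with 93522, 123932 and 114419, while Pigr was above it in S1.

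Markers of other cell types moved beside the granule products in part, where S3 was the highest for 33.1% of all genes. S3 was the highest library for 5 of 7 goblet cell markers (median log2 deviation 0.17, summed level 70241, 77813 and 84341 in S1, S2 and S3). It was the highest for 4 of 6 enteroendocrine markers (0.22, summed level 10982, 13796 and 15088) and for 2 of 3 tuft cell markers tested (0.36, summed level 311, 359 and 389). For stem cell markers S3 was the highest in 2 of 7 (-0.04, summed level 28903, 26246 and 26696), and for enterocyte markers in 2 of 8 (0.02, summed level 665521, 667664 and 636588). Among the markers with S3 highest, its Poisson interval overlapped that of the next library for Agr2 (goblet), Cck and Neurod1 (enteroendocrine) and Dclk1 and Pou2f3 (tuft). The same held for Axin2 and Rnf43 (stem) and Alpi (enterocyte). In bulk RNA a different number of cells of a type and a different amount of RNA per cell cannot be told apart. The part of these other cell types in the members' values was not tested. Most markers of mesenchymal and immune cells were low, with Col1a2 and Acta2 at 0 reads in each library, Ptprc, the pan-leukocyte marker, at 2.84, 0 and 0 normalized counts, and Vim at 145, 123 and 190. Of 5 mesenchymal markers in the table, Vim alone was tested, and of 4 immune markers Itgam (199.6, 234 and 208 normalized counts) and Cd68 (16.1, 10.7 and 23.0) were. Itgam, an integrin of myeloid cells, was thus not near 0. The lists had summed levels of 148, 127 and 193 for the mesenchymal and 219, 245 and 232 for the immune list.

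**Figure D5:**
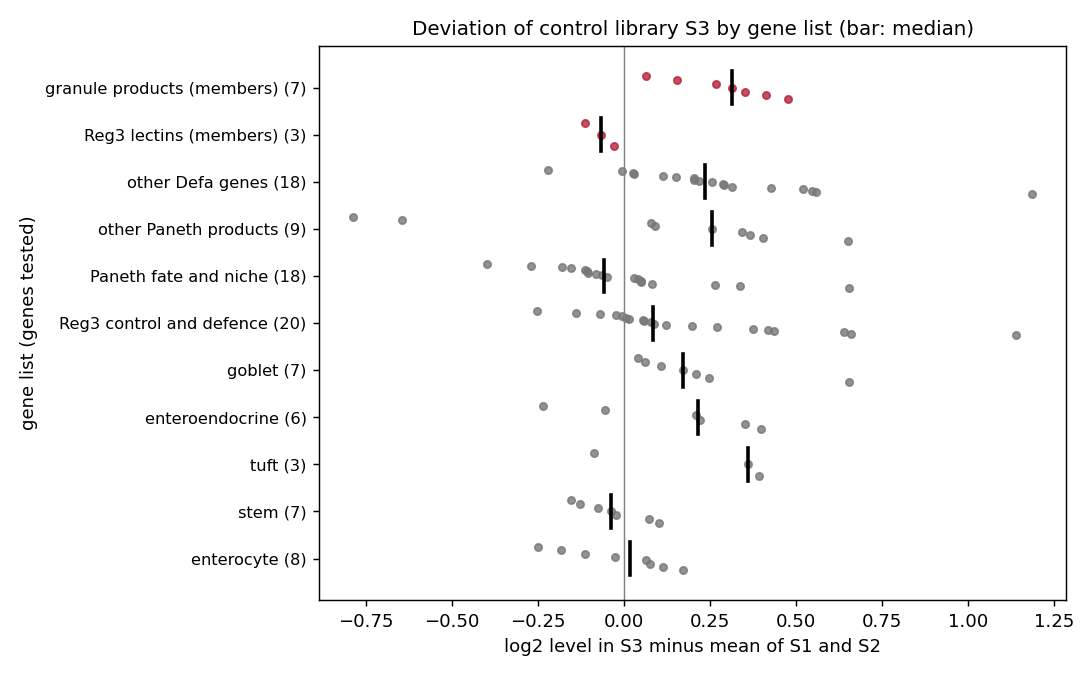
Log2 level in control library S3 minus the mean of S1 and S2 for each tested gene (points) of 11 gene lists, with the median of each list (bar). The granule products have a median of 0.31 and the Reg3 lectins of -0.07, beside 0.24 for other Defa genes, -0.06 for genes of Paneth cell fate and niche and 0.02 for enterocyte markers.

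The pattern over libraries was also compared with that of all genes whose mean reached 100 normalized counts. Centred on each gene's own mean, the median pattern of the members was -0.12, -0.07 and 0.14 in S1, S2 and S3 on the log2 scale. The 5 other genes closest to it by Euclidean distance over the 3 libraries were Megf9, Dpm2, Daxx, Sorbs2 and Ppp1r15a, at distances from 0.028 to 0.029. Of the members, Lyz1 (0.077) and Itln1 (0.079) lay closest to it and Reg3g (0.51) farthest. Of 10920 other genes, 311 lay closer to this pattern than Lyz1 did, so with 3 libraries this likeness is shared by many genes. The pattern was the median of these same members, so the nearness of some of them is built in. Of the other genes, 2.97% lay closer than Itln1, 5.97% than Mmp7, 38.1% than Defa26 and 45.7% than Ang4. The share was 53.3% for Pla2g2a, 61.8% for Defa24, 66.1% for Reg3b, 80.9% for Reg3a and 96.9% for Reg3g.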

How the data were processed

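The authors sequenced stranded mRNA libraries as paired ends and, by the study's methods and the submitters' processing notes, mapped reads with Bowtie2 2.2.9 (build mm9), quantified genes with RSEM 1.2.31 and used DESeq2 1.14.1. The annotation release is not given in the sources used here. The authors deposited 1 signal per gene and library, named normalized counts. The smallest value above 0 in a control library was taken as 1 read, and 100% of values then came out as whole reads (within 0.01). Of 21256 rows, 1 repeats an identifier and was left out, and 21213 of 21255 identifiers had a symbol.

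Columns were matched to samples by name. No label of the series matches the remaining 3 value columns, which were not used, neither by elimination nor by the level of Cebpa, so the planned test of C/EBPα KO against control was not run. With 1 group left, no count test was run on the recovered reads either. The members and lists were chosen with earlier results of these data known.

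For each gene the mean ± SD, CV, exact 95% Poisson interval and log2 deviation (pseudocount 1) were computed, where the mean reached 10 normalized counts. Named genes were the members, the extremes of each list by level or deviation, background genes named for their role, and the 5 genes closest in pattern. Some genes counted with S3 highest were also named because the intervals of their libraries overlapped. Transcript lengths (longest transcript without retained introns) and shared words of 75 bases came from GENCODE M21 (GRCm38). Promoters came from RefSeq. Protein features set out for the members were not analysed here. Deviations and intervals were tested on simulated reads, and the outcome of that is not given here. Software was Python 3.11.15 with scipy 1.17.1, numpy 2.4.6, pandas 2.3.3 and Biopython 1.88. Alternatives were a pseudocount of 0.1 or 5, a minimum mean of 1 or none, equal totals or equal upper quartiles, and leaving out each library.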

Additional observations from a re-analysis of the deposited data

How the results depend on the processing

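No paired analysis was possible because only control libraries were analysed, and leave-out fits are descriptions of 3 libraries with no test. The summed level of the members was 143143 normalized counts and ran from 137138 to 148640 without each library in turn. All 20 levels of single members under other scalings stayed within 1 SD. Of 120 deviations of single members under other scalings and pseudocounts, 120 stayed within 1 SD and kept their sign. Scaling to the same upper quartile left 4 members at least 1.2-fold higher in S3, instead of 5, against 7.81% of all genes. With a mean of at least 1 in place of 10, 15.3% of all genes were at least 1.2-fold higher in S3, and with no filter 15.9%, since low genes were added. Without a library, the median over members was -0.29 to 0.023 in S1, -0.17 to -0.023 in S2 and 0.17 to 0.29 in S3. Against S1 or S2 alone, 5 to 6 members and 10.3% to 12.3% of all genes were at least 1.2-fold higher in S3.

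Of 60 deviations of single members without a library, 10 changed sign. With 3 libraries the middle one of each of the 10 genes must do so under 1 of the fits, which accounts for them. Without another library in turn, the deviation in S1 ran from -0.45 to 0.055 for Ang4, from -0.24 to 0.049 for Itln1 and from -0.31 to 0.20 for Pla2g2a. In S2 it ran from -0.31 to 0.0031 for Lyz1, from -0.31 to 0.086 for Mmp7 and from -0.13 to 0.048 for Reg3a. In S3 it ran from -0.10 to 0.23 for Defa24, from -0.00043 to 0.31 for Defa26, from -0.10 to 0.048 for Reg3b and from -0.40 to 0.27 for Reg3g. Depth limits Pla2g2a and Defa26, with 134 to 178 and 381 to 418 reads per library.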

Other observations

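Beside Duox2, its maturation factor Duoxa2 had 60.6, 70.5 and 102 normalized counts in S1, S2 and S3, and Nos2, which makes nitric oxide, 380.4, 472 and 671. Clca1, a secreted goblet cell protein, had 2305, 3248 and 4304. These 3 genes had their highest value in S3, and were named after their values were seen. For Duoxa2 the Poisson interval of S3 overlapped that of S2. Pnliprp2, a lipase listed among the Paneth cell products, had 2800, 2929 and 3632, and Bhlha15, a factor of secretory cells, 357, 372 and 460.3, both with S3 highest, as for Lyz1 and Mmp7.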
